A study of Oncorhynchus mykiss with 9 samples.

Results

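Among the 1413 miRNA entries measured in rainbow trout liver, 2 are named miR-459, miR-459-x and miR-459-y, and both were taken by that name. The miRNA was chosen by its level in TPM in the moderate hypoxia libraries, where miR-459-x stood far lower than in the others, so those values are given as a description, without a test. Small RNA was sequenced in 9 libraries from liver of wild-type rainbow trout (Oncorhynchus mykiss). Of these, 3 came from fish under moderate hypoxia for 12 h, 3 from fish under acute hypoxia for 12 h and 3 from control fish. All 9 share the wild-type genotype and the tissue. The labels give no oxygen level and no age, and leave it unsaid whether 1 group's libraries came from separate fish, so p-values measure the spread between these libraries only. Not analysed here are the mRNA and lncRNA of the study and its fish returned to normal oxygen.

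A miRNA is cut by Dicer from the 2 arms of a hairpin as a short duplex. An Argonaute protein keeps one strand as the guide, and the other is usually lost. The guide finds mRNAs mainly through its seed, bases 2 to 8 from its 5′ end, and lowers their translation or stability. The strand that is kept can differ between tissues and states, so the ratio of the arms is given beside their levels. As it is computed from these levels, it is not independent of a change in either arm. The miRNA miR-459 was catalogued in zebrafish and other bony fish.

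The sequences of both entries, and of the other entries that carry the seed of miR-459-x, are shown to make the arms and the shared seed visible. They are the deposited sequences, 5′ to 3′, with the seed in capitals.
miR-459-x: tCAGTAACaaggattcatcctg
miR-459-y: cAGGGAATctctgttactgg
miR-802-z: tCAGTAACaatgattcatcctg
miR-8159-x: tCAGTAACtggaatctgtccct
Names are printed as deposited, and the file does not explain their last letters. The sequence of miR-459-x has 22 bases and that of miR-459-y has 20. Folded against each other, they formed a predicted duplex of 18 base pairs, 17 of them Watson-Crick pairs and 1 a G-U pair, with a minimum free energy of -22.0 kcal/mol. All 7 seed bases of miR-459-x were paired in it. Genome positions were not used here. Both miR-459 names carry the same sequences in both naming runs of the deposited file.

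Read numbers given here were recovered from the step between low values and could not be checked against the columns. By that step, scaling totals were 8443329 to 16515714 reads per library. In these units 3 reads corresponded to 0.182 to 0.355 TPM, the deposited abundance scaled to a common library total. Moderate hypoxia libraries 1 and 2 stood apart. There, the sum over 19 entries with names from an imprinted cluster known in placental mammals was 242 and 295 TPM, against 3.57 TPM in the third moderate hypoxia library. The sums were 3.20 to 4.90 TPM in the acute hypoxia libraries and 2.63 to 3.53 TPM in the control libraries. Whether the reads under these names came from trout RNA was not tested. Control library 1 differed from the other controls in the abundant miR-122-x, at 307409 TPM against 459053 and 500523 TPM.

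The entry miR-459-x was low in every moderate hypoxia library and high in all others. It read 94.7, 99.4 and 96.1 TPM in moderate hypoxia livers, 479, 747 and 653 TPM under acute hypoxia, and 441, 544 and 357 TPM in control. The moderate hypoxia libraries lay below every other library, while the acute hypoxia and control libraries overlapped. Groups without overlap were common: 43.2% of tested entries between moderate hypoxia and control (30.8% lower), 52.8% between acute and moderate hypoxia (40.5% higher, 12.3% lower) and 11.2% between acute hypoxia and control (8.94% higher, 2.29% lower). Group means were 96.7 ± 2.44 TPM in moderate hypoxia livers, 626 ± 136 TPM under acute hypoxia and 447 ± 93.9 TPM in control (SD, n = 3 each). In order of mean level, acute hypoxia stood first, control second and moderate hypoxia last, and the libraries of the first 2 groups overlapped. The recovered reads were 1053, 1479 and 1587 under moderate hypoxia, 5670, 6306 and 5739 under acute hypoxia, and 4565, 5586 and 3237 in control. As PCR copies were not told apart by identifiers, the intervals given here cover counting error only. The 95% exact counting intervals reached from 89.0 to 105 TPM over the moderate hypoxia libraries and from 344 TPM upward over the other 6.

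**Figure D1:**
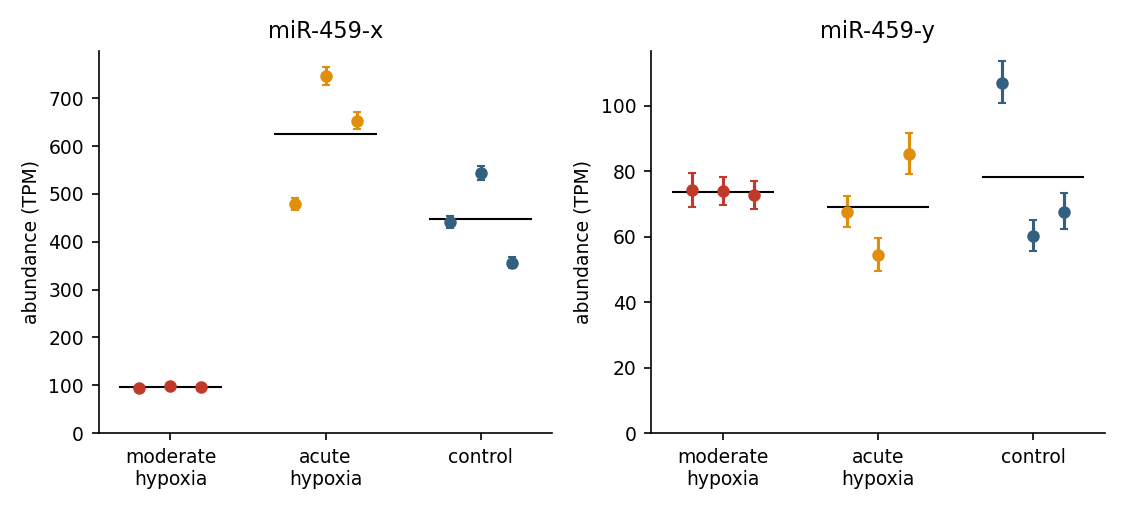
Abundance in TPM (linear axes from 0) of miR-459-x (left) and miR-459-y (right) in each library. Points are libraries, bars are 95% exact counting intervals and horizontal lines are means of 3 libraries. The moderate hypoxia libraries of miR-459-x lie near 96.7 TPM, below every other library, and the 3 groups of miR-459-y overlap.

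The moderate hypoxia mean of miR-459-x was 0.216 of the control mean, a log2 difference of -2.18 on the log2(TPM + 1) scale. Of the 98 entries whose mean reached 100 TPM, only miR-144-y, an erythroid miRNA, differed further downward. The fall placed miR-459-x at rank 92 to 96 of all entries under moderate hypoxia, against rank 53 to 61 under acute hypoxia and rank 57 to 66 in control. Other scalings of the libraries gave -1.94 to -1.73. In deposited units the median of all 481 tested entries was -0.22. Moderate hypoxia library 3, without the high imprinted-cluster sums, read 96.1 TPM and alone gave -2.19. That library shared with the others in its group a high level of the red blood cell miRNA miR-486-x. It read 29.2 TPM there, against at most 0.193 TPM in any acute hypoxia or control library. Whether library 3 is independent of the others in its group was not tested. The acute hypoxia mean was 6.48 times the moderate hypoxia mean, a log2 difference of 2.66. This value uses the same moderate hypoxia libraries and is likewise a description.

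Acute hypoxia against control is the contrast that the choice of miR-459 did not use, although it shares the control libraries. Here miR-459-x did not pass. The log2 difference was 0.48 (SE 0.230, 95% interval -0.026 to 0.99, limma adjusted p = 0.550), and an exact two-sided permutation test gave p = 0.2, where 0.1 is the smallest that 3 against 3 libraries allow. The SE takes a common spread from all 9 libraries, those of moderate hypoxia included. The coefficient of variation there was 2.52%, against 21.7% under acute hypoxia and 21.0% in control, so the limma interval may be too narrow. The same limit applies to the limma intervals of miR-459-y and of the arm ratio in this contrast. Of 481 entries tested in this contrast, 0 passed limma at an adjusted p under 0.05 (0%), and 47 had an unadjusted p under 0.05. The authors' deposited table of this contrast also lists 0 of 1139 entries at a false discovery rate under 0.05, and for miR-459-x it gives a log2 fold change of 0.49 and a false discovery rate of 0.993.

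The opposite arm did not follow. The entry miR-459-y read 74.2, 73.9 and 72.7 TPM in moderate hypoxia livers, 67.6, 54.4 and 85.3 TPM under acute hypoxia, and 107, 60.3 and 67.7 TPM in control. The 3 moderate hypoxia libraries lay inside the range of the control libraries, and all groups overlapped. Means were 73.6 ± 0.794 TPM in moderate hypoxia livers, 69.1 ± 15.5 TPM under acute hypoxia and 78.3 ± 25.2 TPM in control (SD, n = 3 each). No 2 neighbours in the order of these means differed beyond their spread.

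The log2 difference of miR-459-y between moderate hypoxia and control was -0.045, and it turned to 0.19 to 0.34 under 4 other scalings and to 0.20 without control library 1. Between acute hypoxia and control it was -0.16 (SE 0.258, 95% interval -0.73 to 0.41, limma adjusted p = 0.922), which did not pass. It was 0.088 without control library 1 and 0.00083 without acute hypoxia library 2. Between acute and moderate hypoxia it was -0.11, with 0.046 without acute hypoxia library 2 and values as low as -0.65 under other scalings. Where miR-459-x differed by a factor of 6.48 between acute and moderate hypoxia, miR-459-y differed by a factor of 0.939.

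A factor that multiplies a whole library leaves the ratio of its arms as it is, while quantile normalization does not. The TPM of x over that of y was 1.28, 1.35 and 1.32 under moderate hypoxia, 7.08, 13.7 and 7.66 under acute hypoxia, and 4.12, 9.02 and 5.27 in control. The moderate hypoxia libraries lay below every other library, and the acute hypoxia and control ranges overlapped. The x arm made up 56.8 ± 0.662% of the summed TPM of both arms under moderate hypoxia, 89.8 ± 3.02% under acute hypoxia and 84.8 ± 4.83% in control (SD, n = 3 each). The 2 arms summed to 169, 173 and 169 TPM in moderate hypoxia livers, 546, 801 and 739 TPM under acute hypoxia, and 548, 605 and 424 TPM in control.

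To set this ratio beside others, the log2 ratio of x to y was taken for all 67 names that have both entries at a mean of at least 1 TPM. Entries of one name need not come from 1 hairpin, as copies share names. Between moderate hypoxia and control the ratio of miR-459 differed by -2.13, the lowest value of the 67, with miR-30 next at -1.46 and a median of 0.046. Shifts of that size were not limited to miR-459: at the high end stood miR-210, with 2.24, and miR-10, with 1.72. Of the 67 pairs 16 passed limma (23.9%), and since the fall of miR-459-x set the choice, nothing is read from this for miR-459. Without control library 1, the lowest ratio of its group, the value was -2.38, and without control library 2, the highest, -1.82. Between acute and moderate hypoxia the ratio differed by 2.77, where 20.9% of pairs passed.

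Between acute hypoxia and control the arm ratio of miR-459 differed by 0.64 (SE 0.347, 95% interval -0.11 to 1.39, limma adjusted p = 0.618 over the 67 pairs). It did not pass, and the exact two-sided permutation test gave p = 0.3. Of the 67 pairs 0 passed in this contrast (0%), and 3 had an unadjusted p under 0.05.

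**Figure D2:**
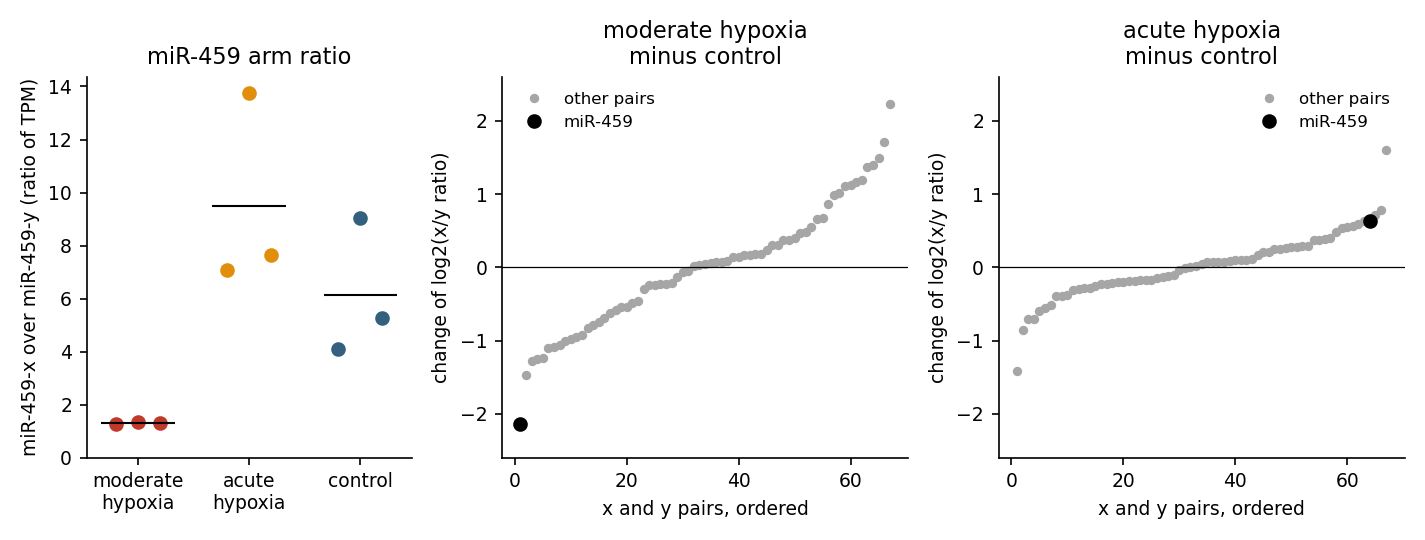
Left, the ratio of miR-459-x to miR-459-y in TPM in each library, with lines at the means of 3 libraries. Middle and right, the change of the log2 ratio of x to y for 67 miRNA names, in rank order, for moderate hypoxia minus control and acute hypoxia minus control. The black point is miR-459, at -2.13 in the middle panel, the lowest of the 67, and at 0.64 in the right panel.

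Both arms were even among the moderate hypoxia libraries. The coefficient of variation of miR-459-x was 2.52% under moderate hypoxia, 21.7% under acute hypoxia and 21.0% in control, where counting alone gives 2.74%, 1.30% and 1.54%. For miR-459-y it was 1.08% under moderate hypoxia, 22.4% under acute hypoxia and 32.1% in control, where counting alone gives 3.14%, 3.98% and 3.72%. Even libraries were a feature of that group: over the 101 entries with a mean of 50 to 5000 TPM, the median coefficient of variation was 8.90% under moderate hypoxia, 18.4% under acute hypoxia and 26.5% in control. Of these 101 entries 14 were more even than miR-459-x under moderate hypoxia and 1 was more even than miR-459-y. The moderate hypoxia libraries were not identical, as their sums of the imprinted-cluster names differed. In many of the marker entries, and in miR-459-x itself, library 3 lay between libraries 1 and 2. The entries printed next were picked after their values were seen, and the share over all tested entries was not counted. For libraries 1 to 3, miR-192-x read 40215, 36412 and 38314 TPM, and miR-199-x 59132, 73118 and 65935 TPM. In the same order, miR-200-y read 3890, 2577 and 3254 TPM, and miR-122-y 1751, 1253 and 1516 TPM. Library 3 did not lie between the others for miR-459-y or the imprinted-cluster sums. Whether the 3 libraries are independent was not tested, and the SDs and limma fits treat them as separate.

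The seed of miR-459-x is carried by 3 of the 1413 entries, and that of miR-459-y by 1. The entry miR-802-z differs from miR-459-x at 1 base, G11T, counted from the 5′ end of miR-459-x. In mice miR-802 is raised in the liver of obese animals. In the trout libraries miR-802-z had 0 reads in every moderate hypoxia library, 1, 2 and 1 reads under acute hypoxia, and 0, 2 and 0 reads in control. All of these are at or under the floor of 3 reads, so no fold is given.

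The third entry with that seed, miR-8159-x, differs from miR-459-x at 8 of 22 positions. It read 25.7, 81.6 and 48.7 TPM in moderate hypoxia livers, 36.6, 50.1 and 32.7 TPM under acute hypoxia, and 23.3, 7.40 and 21.9 TPM in control. Both hypoxia groups lay above every control library and overlapped each other. The share of entries whose groups lie apart in this way was 12.5% for moderate hypoxia above control and 8.94% for acute hypoxia above control. The log2 difference from control was 1.52 under moderate hypoxia (SE 0.465, limma adjusted p = 0.0356), where 25.6% of the 481 entries passed. It was 1.26 under acute hypoxia (SE 0.465, adjusted p = 0.331, exact two-sided permutation p = 0.1, the smallest possible). The moderate hypoxia call was lost in 9 of 21 alternatives. Among them were the fits without moderate hypoxia library 2 (1.12, adjusted p = 0.119) or 3 (1.49, adjusted p = 0.0644), control library 2 (1.02, adjusted p = 0.107), and acute hypoxia library 1 (adjusted p = 0.0528) or 3 (adjusted p = 0.0577). The others were the fits with the replicate block (adjusted p = 0.0538), with only the 6 libraries compared (0.0759), without a filter (0.121) and without moderate hypoxia libraries 1 and 2, which stood apart (1.57, 0.161).

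Of the summed TPM with this seed, miR-459-x supplied 78.6, 54.9 and 66.4% under moderate hypoxia, 92.9, 93.7 and 95.2% under acute hypoxia, and 94.99, 98.6 and 94.2% in control. The summed level of the 3 entries was 120, 181 and 145 TPM in moderate hypoxia livers, 515, 797 and 686 TPM under acute hypoxia, and 464, 552 and 379 TPM in control. The sum was also lower in every moderate hypoxia library than in any other. As miR-459-x made up most of it and was chosen for that fall, this is a description only.

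**Figure D3:**
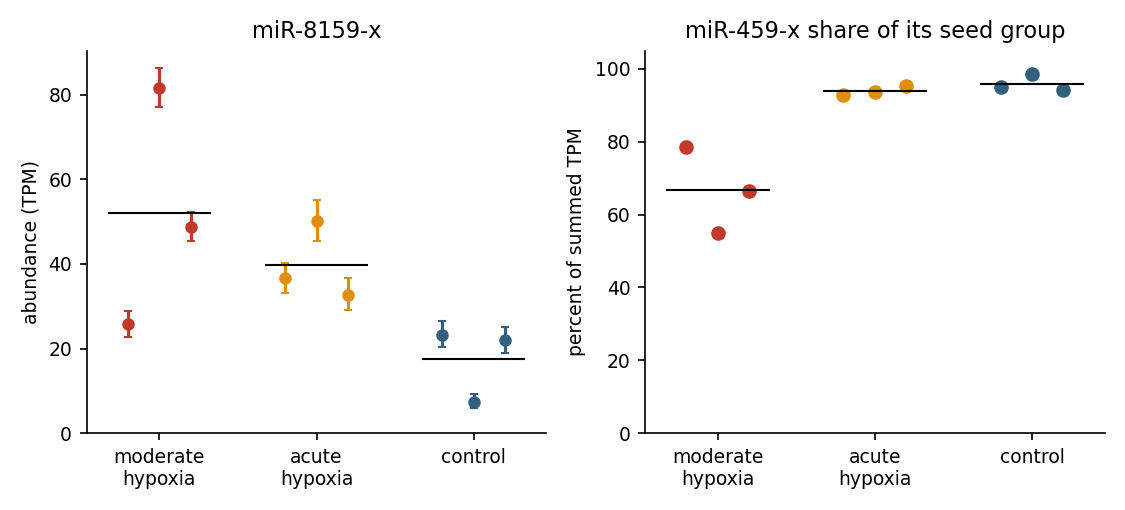
Left, abundance of miR-8159-x in TPM in each library, with 95% exact counting intervals. Right, the share of the summed TPM of the 3 entries with the seed of miR-459-x that miR-459-x supplied, in percent. Lines are means of 3 libraries. Moderate hypoxia libraries lie between 54.9 and 78.6%, below all other libraries, a description only, since miR-459-x was chosen for its fall there.

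Profiles were compared over the 9 libraries as log2(TPM + 1), each centred on its own mean, for distinct sequences that averaged 10 TPM or more. Likeness to miR-459-x is the root mean square difference of the 2 profiles. The closest of 176 candidates was miR-210-y at 0.31, and miR-210-z stood at 0.41. In mammalian cells miR-210 is induced by hypoxia-inducible factor. The entry miR-210-y read 30.9, 31.3 and 28.7 TPM in moderate hypoxia livers, 130, 195 and 148 TPM under acute hypoxia, and 178, 99.4 and 94.9 TPM in control. As in miR-459-x, its moderate hypoxia libraries lay below all others. The third entry of that name, miR-210-x, did not share the profile, with 139.9, 133.8 and 134.8 TPM in moderate hypoxia livers, 116, 163 and 112 TPM under acute hypoxia, and 96.6, 97.3 and 144 TPM in control, inside the control range. The other close profiles were miR-1386-z at 0.38 and miR-144-y, which is cut from an erythroid transcript in vertebrates, at 0.43. Among the 6 closest were also a pair of short predicted sequences, at 0.41 and 0.43, printed here with bases 2 to 8 in capitals because they carry only running numbers as names.
Predicted entry of 18 bases: tCCCGGGTttcggcacca
Predicted entry of 19 bases: aATCAGTGatgggataact
The other arm, miR-459-y, ranked 124 of 176, at 1.24.

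Closest to the mirror image of miR-459-x was miR-10-x, whose genes lie in Hox clusters, at 0.52. It read 2514, 2621 and 2525 TPM in moderate hypoxia livers, 662, 914 and 854 TPM under acute hypoxia, and 867, 874 and 774 TPM in control. Next came miR-215-z, a gut and liver relative of miR-192, at 0.59 and miR-222-y at 0.70. The profile nearest to miR-459-y was that of miR-27-x, at 0.17. It read 44.0, 52.0 and 49.6 TPM in moderate hypoxia livers, 36.7, 33.2 and 39.3 TPM under acute hypoxia, and 65.2, 35.9 and 39.7 TPM in control. Like miR-459-y it was highest in control library 1. All profiles share the same 9 libraries and their scaling, and the likeness is a description.

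**Figure D4:**
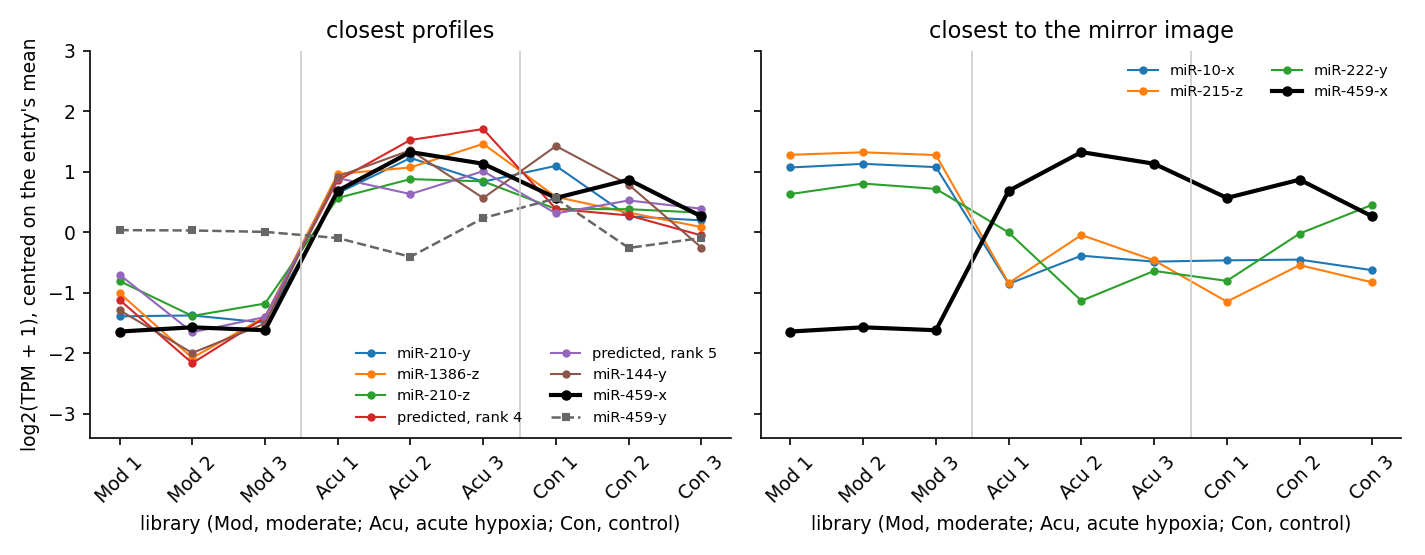
log2(TPM + 1) centred on the entry's own mean over the 9 libraries, for the 6 profiles closest to miR-459-x (left, with miR-459-y dashed) and the 3 closest to its mirror image (right). The black line is miR-459-x, low in the 3 moderate hypoxia libraries, which the dashed line of miR-459-y is not.

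Levels of cell type markers differed between the same groups. In bulk tissue, fewer cells of a type and less RNA per cell cannot be told apart. The 6 red blood cell entries, all 6 tested, summed to 872, 679 and 775 TPM in moderate hypoxia livers, 2855, 3122 and 2156 TPM under acute hypoxia, and 3512, 2777 and 2017 TPM in control, low in the same libraries as miR-459-x. Of the 6, 1 lay above every control under moderate hypoxia, where 12.5% of all tested entries did. It was miR-486-x, at 41.7, 15.9 and 29.2 TPM in moderate hypoxia livers against 0 to 0.193 TPM in the acute hypoxia and control libraries. Another 4 lay below every control, where 30.8% of all tested entries did. Both entries of the endothelial miR-126 lay below every control too, summing to 6719 to 7379 TPM in moderate hypoxia livers, 13401 to 19700 TPM under acute hypoxia and 11982 to 16161 TPM in control. No entry of these 2 lists was at 0 in every library. The hepatocyte miRNA miR-122-x was high in all libraries, and its moderate hypoxia libraries lay above all others. It read 504743 to 525228 TPM in moderate hypoxia livers, 405699 to 460731 TPM under acute hypoxia and 307409 to 500523 TPM in control. The other miR-122 entry overlapped control under moderate hypoxia. Per 1000 TPM of miR-122-x, in TPM, miR-459-x stood at 0.180, 0.197 and 0.185 under moderate hypoxia, 1.10, 1.84 and 1.42 under acute hypoxia, and 1.44, 1.19 and 0.713 in control. The gut and bile duct list, whose miR-192, miR-194 and miR-215 are also made by hepatocytes, summed to 43499 to 49673 TPM in moderate hypoxia livers, 33136 to 36311 TPM under acute hypoxia and 29440 to 41350 TPM in control. Most of that sum was miR-192-x, and the members did not move together. Of 14 tested entries, 3 lay above and 2 below every control under moderate hypoxia, against 12.5% and 30.8% of all tested entries. One of those below was miR-194-x, at 1059 to 1094 TPM in moderate hypoxia livers, 2880 to 4067 TPM under acute hypoxia and 2260 to 2880 TPM in control. Among tested entries, 1 of 5 for leukocytes and 4 of 10 for stroma and smooth muscle lay below every control under moderate hypoxia. The same held for 0 of 3 for pancreas and 1 of 4 for striated muscle, and 1 tested entry of each of these lists lay above. The part of these cell types in the values of miR-459-x was not tested.

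Other miRNAs first numbered in fish were taken from a list of 26 numbers, miR-459 included. Besides miR-459, 16 of the numbers were found, with 32 entries, 15 of them tested. Between moderate hypoxia and control 5 of the 15 fell and 1 rose, where 25.6% of all tested entries passed (17.7% lower, 7.9% higher). Their median log2 difference was -0.32, against -0.22 over all 481 entries. The largest fall was that of miR-731-y, the partner of miR-462 in a pair that hypoxia-inducible factor raises in zebrafish, with -1.66 (SE 0.311, limma adjusted p = 0.00484). Its values were 33.2, 36.1 and 36.8 TPM in moderate hypoxia livers, 88.5, 54.5 and 50.2 TPM under acute hypoxia, and 182, 89.2 and 90.6 TPM in control. The more abundant entry of that name, miR-731-x (mean 257 TPM, against 73.5 TPM for miR-731-y), did not pass, with -0.17 (limma adjusted p = 0.680).

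All 3 entries of miR-722, which in zebrafish neutrophils lowers the motility gene rac2, fell under moderate hypoxia. The most abundant, miR-722-y, read 866, 817 and 834 TPM in moderate hypoxia livers, 1619, 2004 and 1450 TPM under acute hypoxia, and 1423, 1571 and 1713 TPM in control, a log2 difference from control of -0.90 (limma adjusted p = 0.00785). The changes of miR-722-x and miR-722-z were -0.96 and -1.12, that of miR-737-x was -0.69, and miR-724-x rose by 0.88. The calls of miR-731-y and miR-722-y held with any 1 library left out. Under quantile normalization, however, adjusted p was 0.0612 for miR-731-y and 0.050 for miR-722-y, and that of miR-722-y was also lost with trimmed mean of M values scaling (0.112) and with scaling without miR-122-x (0.0508). The other 3 falls were lost under these 3 scalings as well. For miR-722-x and miR-737-x this also held with median of ratios scaling (0.0625 and 0.173) and without a filter (0.0765 for both), and for miR-737-x with the replicate block (0.0501) and with only the 6 libraries compared (0.0599). For miR-724-x it held without a filter (0.0540) and with only those 6 libraries (0.0527). With moderate hypoxia library 3 as the only one of its group, adjusted p was 0.0992 to 0.365 for the 6 entries. The call of miR-722-z did not hold without moderate hypoxia library 3 (adjusted p = 0.050), nor that of miR-724-x without moderate hypoxia library 1 (0.0988), moderate hypoxia library 3 (0.0545) or control library 3 (0.0612).

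The call of miR-722-x was lost without any 1 moderate hypoxia library or without control library 1 or 2 (adjusted p of 0.0667 to 0.0945). That of miR-737-x was lost without any 1 moderate hypoxia library, acute hypoxia library 1 or 3, or control library 2 or 3 (adjusted p of 0.0501 to 0.124). The abundant miR-462-x, at 1570 ± 39.7 TPM under moderate hypoxia and 1800 ± 549 TPM in control (SD, n = 3 each), had a log2 difference of -0.14 (adjusted p = 0.711), and miR-458-y one of 0.29 (adjusted p = 0.40). Neither passed, and nor did miR-457-z (-0.32) or miR-731-x (-0.17). Between acute hypoxia and control 0 of the 15 passed, with a median of -0.14 against 0.084 over all entries. Between acute and moderate hypoxia 4 were higher and 1 lower, where 30.6% of all entries passed (22.9% higher, 7.69% lower), in a contrast that shares the moderate hypoxia libraries. Of these 5 calls, that of miR-722-x was lost in 11 of 21 alternatives (adjusted p up to 0.275), among them the fits without any 1 moderate hypoxia library or without acute hypoxia library 2 or 3. The call of miR-737-x was lost in 5 (up to 0.317), miR-722-z in 3, miR-722-y in 2 and miR-724-x in 1, none of them a fit without 1 library.

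**Figure D5:**
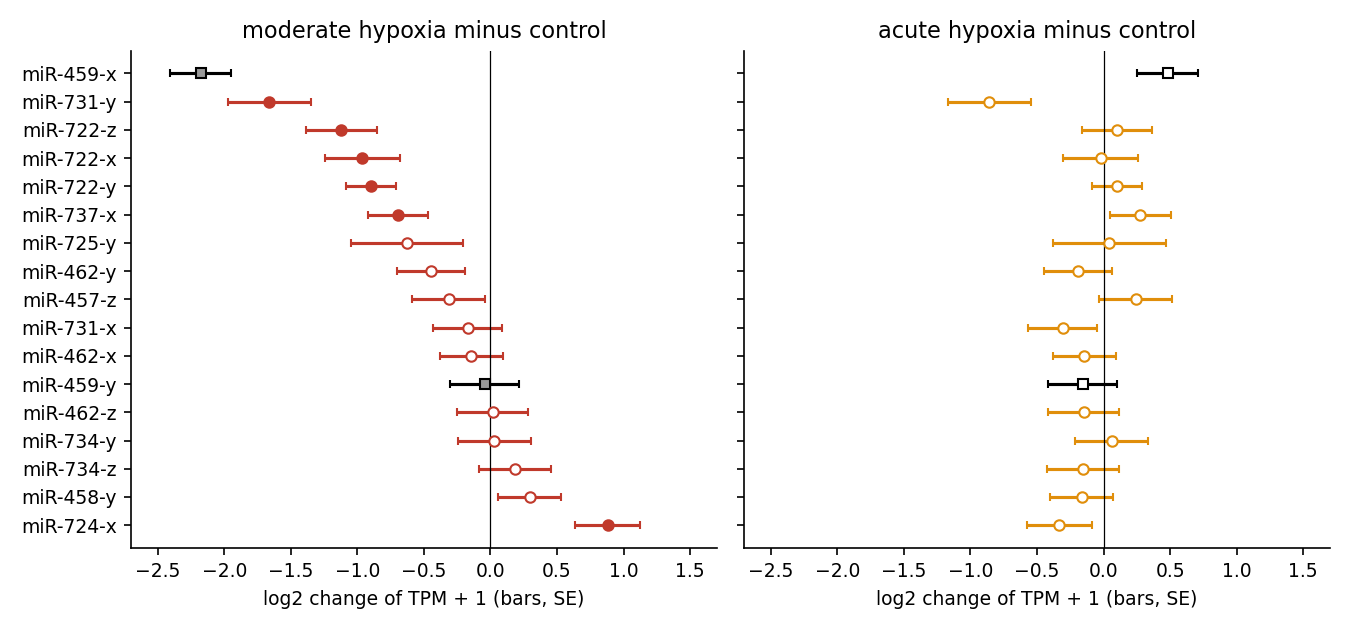
log2 change of TPM + 1 with its SE for miR-459 (squares) and the 15 other tested entries of the fish list (circles), in moderate hypoxia minus control (left) and acute hypoxia minus control (right). Filled circles passed limma at an adjusted p of 0.05, open symbols did not, and grey squares were not tested. In the left panel miR-459-x lies lowest, at -2.18, and miR-459-y near 0.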

How the data were processed

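Small-RNA libraries had been made from Trizol-extracted total RNA by standard Illumina protocols, per the labels' protocols. Aligner, counting step and genome build were not given in the sources used here. In the deposited file, 3 tables follow each other, each with 6 libraries. Abundance is a deposited signal scaled to a common library total, headed TPM per the file headers, with 0.01 in place of 0, which was read as 0. The authors deposited log2 fold changes, p-values and false discovery rates without naming their test. Of the tables, those that include moderate hypoxia list an identical set of 1413 entries, and these were joined over 9 libraries. The remaining table, with 1139 entries of another naming run, served as an alternative. Low values were whole multiples of 1 step per library (100% of values up to 100 reads, within 0.1 read), which returned the reads.

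Entries averaging 1 TPM or more (481) were fitted as log2(TPM + 1) with limma-trend (limma 3.58.1, R 4.3.3), 3 group means over 9 libraries, with Benjamini and Hochberg adjustment at 0.05. The fit was tested on simulated data with the same spread in all groups, so that test does not cover the unequal spread seen here. Fold changes on that scale understate the change of low entries. The 481 entries held 399 distinct sequences, so shares of tested entries count some sequences more than once. The duplex was predicted with RNAduplex (ViennaRNA 2.7.2). The members and lists were chosen with earlier results of these data known, and the arm ratio, miR-459-y and miR-8159-x were tested after their values were seen. Named entries are both miR-459 entries, those sharing a seed, the 6 closest and 3 mirrored profiles of miR-459-x, the fish list above 10 TPM and the leading markers. Outside that rule, miR-27-x, miR-30, miR-122-y, miR-194-x, miR-200-y, miR-210-x, miR-486-x and miR-724-x were named after their values were seen. No hairpin table was used.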

Additional observations from a re-analysis of the deposited data

How the results depend on the processing

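The log2 difference of miR-459-x between acute hypoxia and control stayed positive and did not pass in any of 22 alternatives (0.33 to 0.66, limma adjusted p from 0.177 to 0.943). Its difference between moderate hypoxia and control, -2.18, was -1.79 with trimmed mean of M values scaling, -1.92 with median of ratios, -1.73 with quantile normalization and -1.94 scaled without miR-122-x. With 1 library left out it ranged from -2.33 to -2.03. Between acute and moderate hypoxia the first 3 of these scalings gave 2.17, 2.30 and 2.06 in place of 2.66, and leaving out 1 library gave 2.52 to 2.84. For miR-459-y, moderate hypoxia against control turned to 0.34, 0.21, 0.32 and 0.19 under the 4 scalings in that order and to 0.20 without control 1. Its acute hypoxia against control value turned to 0.00083 without acute hypoxia 2 and to 0.088 without control 1, and its acute against moderate hypoxia value to 0.046 without acute hypoxia 2. With 1 library left out, these 3 values of miR-459-y ranged from -0.21 to 0.20, from -0.32 to 0.088 and from -0.27 to 0.046. The cause was not tested.

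The count of entries that passed between moderate hypoxia and control, 123, was 57 without a filter, 75 at a mean of at least 10 TPM, 80 under quantile normalization and 10 without moderate hypoxia libraries 1 and 2, a fit that takes the spread of the 1 library left from the other groups. It was 61 to 129 with 1 library left out. The fit without a filter tested all 1413 entries, and that at 10 TPM fewer than the 481 of the main fit. Counts under these filters are therefore not shares of the same total. Between acute and moderate hypoxia, 147 became 83 at 10 TPM and 28 without both libraries, and 73 to 186 with 1 library left out. Between acute hypoxia and control the count was 0 in all 21 alternatives.

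Deviations of same-numbered libraries from their group means correlated at -0.21 to 0.26 (1 of 9 above 0.1). For differently numbered libraries the range was -0.34 to 0.25 (7 of 18 above 0.1). With 3 libraries per group, these values cannot exclude that same-numbered libraries share more than a number. With the replicate block, miR-459-x between acute hypoxia and control had 0.48 (adjusted p = 0.50), and its arm ratio 0.64 (adjusted p = 0.550). In alternatives the arm ratio stayed at 0.34 to 0.95 and never passed. Tests on recovered reads were planned and not run, because the stacked layout did not allow the reads to be checked against the columns.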
